A study of Rattus norvegicus with 10 samples.

Results

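The genes described are 6 members of the creatine phosphate shuttle and of oxygen storage in muscle, among 18025 genes listed for fetal rat hearts: the creatine kinases Ckm, Ckb and Ckmt2, the oxygen-binding protein myoglobin (Mb), the creatine-making enzyme Gamt and the creatine transporter Slc6a8. They were picked by name, with the difference between the 2 groups of hearts in these same libraries already known, so that this difference is given below as a description and without a test. All 6 were among the 14542 genes compared, whose mean level reached 0.1 FPKM (fragments per kilobase of gene and per unit of library size, so that levels of different genes can be set side by side).

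Hearts were taken at embryonic day 19.5 from fetuses of Sprague-Dawley rats. In the control group (CON) the dam, 3 months old at the start, had been injected with citric acid buffer alone. In the hyperglycemic group (HG) the dam, of the same strain and age, had been injected with streptozotocin (STZ), which destroys the insulin-producing cells of the pancreas, to make it diabetic. The sources differ on the timing, since the methods place the injections after the mating and the introduction places the diabetes ahead of pregnancy. The sires were of the same strain and age, and no genetic change was made. There were 5 libraries of poly-A RNA per group, and the comparison asks how the RNA of the fetal heart differs after a diabetic pregnancy. The labels do not say whether the 5 fetuses of a group came from separate litters, so the spread between libraries may be partly technical or shared by littermates, and every p below measures only that spread.

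Creatine kinases move the high-energy phosphate of ATP to creatine and back. Ckmt2 sits in the space between the mitochondrial membranes and loads creatine where ATP is made, whereas Ckm, the muscle form, regenerates ATP at the myofibrils, and Ckb, the brain form, predominates in the early embryonic heart before the muscle forms take over. Creatine itself is made in successive steps by Gatm and Gamt and is taken up by Slc6a8. Myoglobin stores oxygen in heart and skeletal muscle and eases its diffusion to the mitochondria.

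The labelled tissue was checked against its defining genes. All 13 cardiomyocyte genes listed were detected, with a summed level of 29732 to 31281 FPKM in CON libraries and 25250 to 29219 FPKM in HG libraries, so the sums did not overlap. The CON libraries held 17639895 to 18240006 reads on genes, with a median of 18111199, and the HG libraries 16672876 to 19109844, with a median of 17654802, so no library stood apart in depth. The members differed widely in their depth of reads. Ckm had 12341 to 29821 reads in a library, Mb 5472 to 23892 and Ckb 2092 to 5435, while Ckmt2 had 307 to 573 reads in CON and 90 to 142 in HG. Gamt had 350 to 456 reads and Slc6a8 had 1467 to 1856.

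The DNA before the transcript start is shown for the 4 members with the largest differences between HG and CON. Any part of these letters in the differences was not tested. The sequences are the 250 bases just before the transcript start in RefSeq's rat assembly GRCr8, which is a later build than the one behind the expression values. Capitals mark a TATA box (TATAAA or TATATA, read on the strand of the gene only), an E-box (CANNTG, the letters recognised by the basic helix-loop-helix factors of muscle) or a MEF2 match.
Ckm, chr1:88189211-88189460, plus strand: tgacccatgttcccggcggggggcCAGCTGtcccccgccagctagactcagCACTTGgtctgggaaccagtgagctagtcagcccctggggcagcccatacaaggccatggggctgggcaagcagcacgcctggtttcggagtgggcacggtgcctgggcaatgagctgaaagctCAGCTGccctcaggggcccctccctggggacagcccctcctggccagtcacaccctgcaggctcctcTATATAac
Ckb, chr6:136553465-136553714, minus strand: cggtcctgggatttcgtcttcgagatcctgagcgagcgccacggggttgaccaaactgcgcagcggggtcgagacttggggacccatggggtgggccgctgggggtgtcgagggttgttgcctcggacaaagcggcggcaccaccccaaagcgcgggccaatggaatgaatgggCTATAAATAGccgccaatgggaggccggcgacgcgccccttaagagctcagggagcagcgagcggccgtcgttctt
Ckmt2, chr2:24845512-24845761, minus strand: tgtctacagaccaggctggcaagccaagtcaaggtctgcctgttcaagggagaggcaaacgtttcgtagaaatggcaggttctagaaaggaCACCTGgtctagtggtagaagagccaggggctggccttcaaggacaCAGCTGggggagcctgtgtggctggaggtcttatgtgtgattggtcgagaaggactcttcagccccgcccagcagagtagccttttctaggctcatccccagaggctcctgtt
Mb, chr7:110647743-110647992, minus strand: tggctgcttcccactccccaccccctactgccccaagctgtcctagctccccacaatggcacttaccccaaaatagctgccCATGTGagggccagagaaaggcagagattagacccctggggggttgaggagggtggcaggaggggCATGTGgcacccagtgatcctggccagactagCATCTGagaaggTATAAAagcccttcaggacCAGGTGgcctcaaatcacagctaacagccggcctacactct

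All 6 members had such a window, and motifs were searched on both strands except the TATA box. Ckm held 3 E-boxes and a TATA box, Mb 4 E-boxes and a TATA box, and Ckmt2 2 E-boxes and no TATA box. Ckb held no E-box. Its TATA box lay inside the MEF2 match, so that the same letters count under both. Counted from the annotated start, the TATA letters lay at -8 to -3 in Ckm, -60 to -55 in Mb and -75 to -70 in Ckb. Among all 33469 rat windows of this length, 65.5% held an E-box, 12.0% a TATA box and 2.96% a MEF2 match, so an E-box alone is common. Gamt held 4 GC boxes (GGGCGG, found in 30.5% of all windows) and neither an E-box nor a TATA box, and Slc6a8 held 1 GC box and 1 E-box. The CCAAT box (CCAAT, 34.0% of windows) was found in Ckb and Ckmt2. No member held an exact match to the CArG box (CCWWWWWWGG, W being A or T), the motif of serum response factor. An exact match was found in 1.50% of windows. Sites that depart from these letters by a base were not counted. GC content ran from 55.6% for Ckmt2 to 65.6% for Ckm in the windows printed, above the median of 51.2% over all windows. A match is a run of letters and not a bound site.

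**Figure D1:**
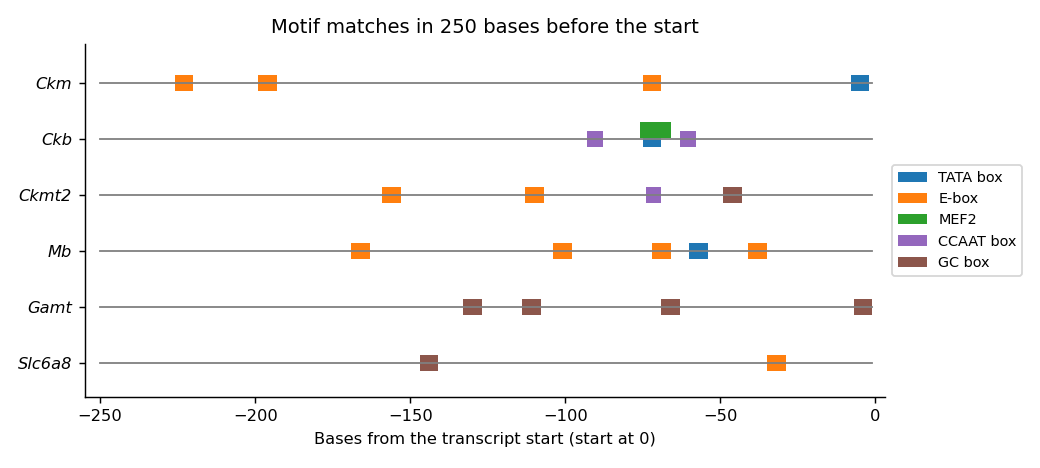
Positions of motif matches (coloured blocks) in the 250 bases before the transcript start of each of the 6 members, with distance from the start in bases on the x axis and one line per gene. Ckm, Ckmt2 and Mb hold 2 to 4 E-boxes, the TATA box of Ckb lies inside its MEF2 match, and Gamt holds GC boxes only.

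All 4 genes of phosphate transfer and oxygen storage were lower in HG than in CON in every library. Ckmt2 differed most, to 27.4% of its CON level, followed by Mb with 31.7%, Ckm with 51.1% and Ckb with 72.3%. The genes of creatine making and uptake were closer, with Slc6a8 at 86.7% and Gamt at 90.2%. On the log2(FPKM + 0.1) scale, in a linear model fitted with limma over all genes, the median log2 fold change of the 6 members was -0.73, beside a median of 0.093 over all 14542 genes tested. An adjusted p under 0.05 was reached by 40.1% of all genes tested. By direction, 11.8% of all genes tested were called lower and 28.4% higher in HG. Of the 6 members, 6 were called lower and 0 higher, which is stated for the record only, since the members were selected on this difference. Every HG library lay below every CON library for 8.12% of all genes tested and for 5 of the 6 members, the exception being Gamt. Among the calls at an adjusted p under 0.05, those with log2 fold changes also under -1 made up 1.07% of all genes tested. Ckmt2 and Mb are the 2 members among them, and Ckm, at -0.97, lay just short. The split of calls over all genes moved with the scaling of the libraries. Of all called genes, 70.7% were higher in HG as deposited, 53.0% after quantile normalization and 47.4% when libraries were scaled by median-of-ratios factors, and the 6 members were called lower under each of these. With the hemoglobin genes left out, 75.0% of calls were higher and 5 members were called lower.

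**Figure D2:**
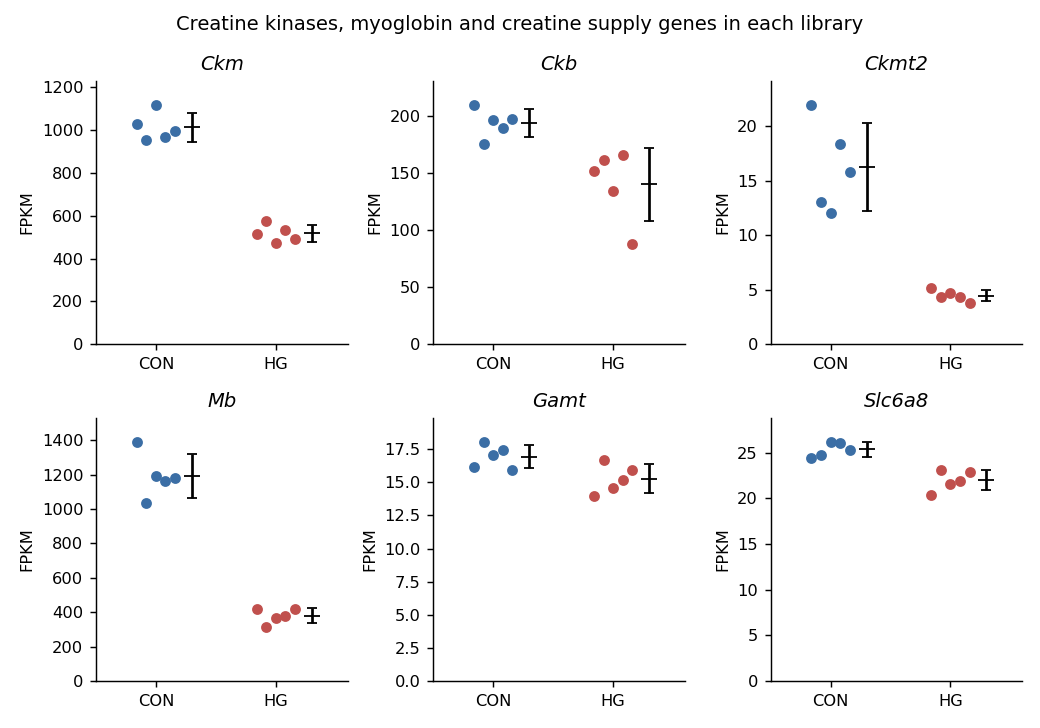
Level in FPKM (y axis, linear from 0, its own range in each panel) of each member in the 5 CON (blue) and 5 HG (red) libraries, with the group mean and SD beside the points. The groups lie apart for all members but Gamt, and HG 5 lies far below the other HG libraries for Ckb.

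Ckm (NCBI Gene 24265), the muscle-type creatine kinase, was at 1030.5, 955, 1118, 967 and 995 FPKM in CON libraries 1 to 5. In HG libraries 1 to 5 it was at 517, 576, 474, 534 and 489.7 FPKM. The highest HG library thus lay well under the lowest CON library, and no library stood out in either group. The means were 1013 ± 65.6 FPKM for CON and 518 ± 40.0 FPKM for HG (SD, 5 libraries per group), a log2 fold change of -0.97 (standard error 0.0587). In order of level, Ckm was between the 40th and the 54th gene of a CON library and between the 123rd and the 156th of an HG library.

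Ckb (24264), the brain-type kinase, was at 209.8, 176, 196, 189.8 and 198 FPKM in the CON libraries. The HG libraries were at 152, 162, 134, 166 and 87.7 FPKM. The groups did not overlap. HG 1 to 4 lay at 134 to 166 FPKM, under the lowest CON library at 176 FPKM, and HG 5 lay far below them. The CON mean was 194 ± 12.4 FPKM and the HG mean 140.3 ± 31.9 FPKM (SD, 5 per group), a log2 fold change of -0.50 (standard error 0.143), or -0.34 without HG 5.

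Ckmt2 (688698), the mitochondrial kinase of striated muscle, was at 21.9, 13.0, 12.1, 18.3 and 15.8 FPKM in CON. The values in HG libraries 1 to 5 were 5.15, 4.34, 4.72, 4.32 and 3.74 FPKM. The CON libraries spread widely, with a coefficient of variation of 24.8% against 11.7% in HG, yet the lowest of them lay above the highest HG library by a clear margin. The means were 16.2 ± 4.03 and 4.46 ± 0.523 FPKM (SD, 5 per group), so that CON was 3.64-fold higher. The log2 fold change was -1.82 (standard error 0.146). In the order of log2 fold changes from the lowest, Ckmt2 was the 29th of 14542 genes.

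Mb (59108) was at 1392, 1037, 1195, 1161 and 1182 FPKM in CON and was then among the most abundant messages, between the 25th and the 46th gene of a library. Its HG values were 417, 314, 365, 378 and 420.4 FPKM, between the 174th and the 229th gene. The lowest CON library was far above the highest HG library, and both groups varied by about the same share, with coefficients of variation of 10.7% and 11.5%. The means were 1193.5 ± 128 and 379 ± 43.4 FPKM (SD, 5 per group), 3.15-fold higher in CON, for a log2 fold change of -1.66 (standard error 0.0870). It was the 46th lowest log2 fold change of all genes tested.

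Gamt (25257), which methylates guanidinoacetate to creatine, was at 16.2, 18.1, 17.1, 17.4 and 15.9 FPKM in CON. HG libraries 1 to 5 had 14.0, 16.7, 14.6, 15.2 and 15.9 FPKM. The groups overlapped, since HG 2 lay above 2 CON libraries. The means were 16.9 ± 0.889 and 15.3 ± 1.08 FPKM (SD, 5 per group), a log2 fold change of -0.15 (standard error 0.0560). Its call held in 8 of the 22 fits run. Relative to the summed cardiomyocyte genes the sign turned, to 0.051.

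Slc6a8 (50690), the transporter that brings creatine into the cell, was at 24.4, 24.8, 26.2, 26.0 and 25.3 FPKM in CON. In HG it was at 20.4, 23.2, 21.6, 21.9 and 22.9 FPKM. The groups did not overlap, although only a narrow gap separated the highest HG from the lowest CON library. The means were 25.4 ± 0.775 and 22.0 ± 1.10 FPKM (SD, 5 per group), a log2 fold change of -0.21 (standard error 0.0428), which was -0.0050 relative to the summed cardiomyocyte genes.

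In the order of levels, Mb and Ckm were the highest members in CON and exchanged places in HG, where Ckm was higher than Mb in every library, although their ranges over the CON libraries overlapped. Mb was 1.18 ± 0.113 times the level of Ckm in CON (range 1.07 to 1.35) and 0.738 ± 0.121 times in HG (range 0.545 to 0.859, SD, 5 per group). Ckb came next in both groups. Slc6a8, Gamt and Ckmt2 followed in CON, where the ranges of Gamt and Ckmt2 overlapped. In HG, Ckmt2 was the lowest member by a wide gap.

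The share of each kinase is given in RNA, which does not show how much of each protein the hearts contained. The summed level of Ckm, Ckb, Ckmt2 and the ubiquitous mitochondrial form Ckmt1 was 1263, 1144, 1327, 1176 and 1209 FPKM in the CON libraries. The HG sums were 674, 743, 614, 705 and 581 FPKM. The groups lay far apart, with means of 1224 ± 72.6 FPKM for CON and 663 ± 65.9 FPKM for HG (SD, 5 per group), or 54.2% of CON. Ckm made up 82.8 ± 1.06% of this sum in CON and 78.3 ± 3.39% in HG. Ckb made up 15.9 ± 0.755% in CON and 21.0 ± 3.36% in HG, where HG 5 had 15.1% and the other 4 libraries had 21.8% to 23.6%. The share of Ckmt2 was 1.33 ± 0.329% in CON and 0.675 ± 0.0865% in HG (SD, 5 per group).

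The ratio of muscle to brain creatine kinase is part of the rule that names these genes and is likewise only described. Ckm over Ckb was 4.91, 5.43, 5.69, 5.10 and 5.03 in CON. The HG ratios were 3.41, 3.56, 3.54, 3.21 and 5.58. In 4 HG libraries the ratio lay below the whole CON range, while HG 5, which had the lowest Ckb and a Ckm level of 489.7 FPKM, lay inside it. The means were 5.23 ± 0.323 and 3.86 ± 0.973 (SD, 5 per group), a difference of the log2 ratio of -0.47, or -0.61 without HG 5. Ckm over Ckmt2 moved the other way, from 65.7 ± 18.1 in CON (range 47.0 to 92.6) to 118 ± 16.1 in HG (range 100.2 to 133), without overlap. The mitochondrial forms also shifted against each other, with Ckmt2 at 29.4 ± 7.13 times the level of Ckmt1 in CON and 8.39 ± 1.89 times in HG (SD, 5 per group). Ckmt1 had only 10 to 24 reads in a library and was not called, so this ratio mainly restates the lower level of Ckmt2.

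**Figure D3:**
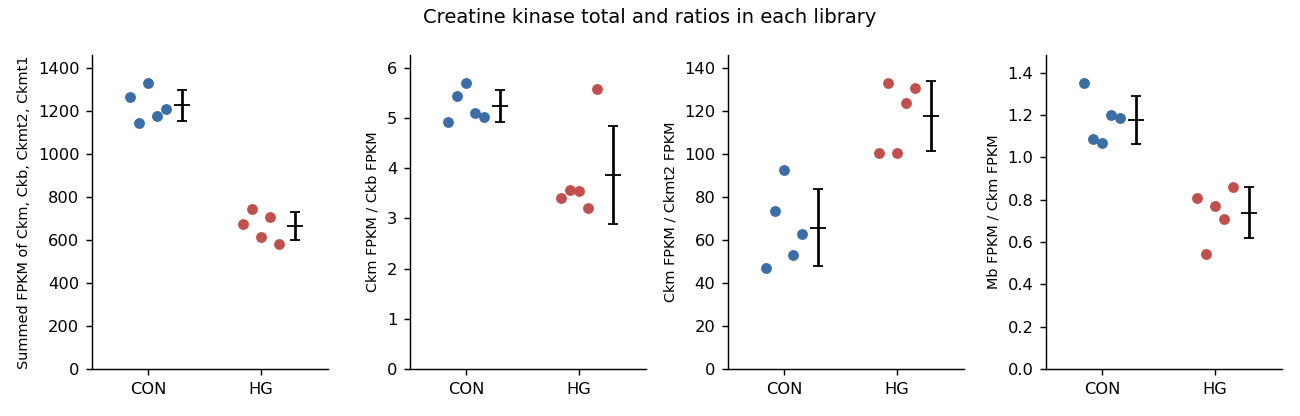
Summed level of the 4 creatine kinases in FPKM and the ratios Ckm/Ckb, Ckm/Ckmt2 and Mb/Ckm (y axes, linear from 0) in the 5 CON (blue) and 5 HG (red) libraries, with the group mean and SD beside the points. The groups lie apart in all panels except Ckm/Ckb, where HG 5 at 5.58 falls within the CON range of 4.91 to 5.69.

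In RNA of whole hearts, fewer cells of a type and less RNA per cell cannot be told apart. Cardiomyocyte genes moved with the members. Of the 13 listed, 10 fell and 1 rose in HG, with a median log2 change of -0.35, and their sum in HG was 87.0% of that in CON. Among them Myh6, the adult myosin of the rodent heart, fell by 1.03 on the log2 scale (limma, adjusted p = 1.97e-06), the phospholamban gene Pln by 0.48 (adjusted p = 8.53e-06) and the troponin gene Tnni3 by 0.54 (adjusted p = 4.89e-05). The 1 that rose was Nppa, the atrial natriuretic peptide, chosen here after its value was seen (log2 fold change 0.71, adjusted p = 0.000797). Per 1000 FPKM of summed cardiomyocyte genes, Ckm went from 33.0 ± 1.66 in CON to 19.4 ± 1.34 FPKM in HG, Mb from 38.8 ± 3.73 to 14.2 ± 1.96 FPKM and Ckmt2 from 0.529 ± 0.131 to 0.167 ± 0.0203 FPKM (SD, 5 per group), all 3 without overlap. The scale is a plain sum of FPKM, so the most abundant genes weigh most in it, and it includes Nppa, which rose. Actc1, named here as the highest of the 13, had a CON mean of 10910.5 FPKM, beside 30717 FPKM for the sum. It was not called (log2 fold change -0.16, limma adjusted p = 0.114). On this scale HG was at 58.8% of CON for Ckm, 36.6% for Mb and 31.6% for Ckmt2. Ckb (82.7%), Gamt (104%) and Slc6a8 (99.9%) had overlapping groups on it.

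Markers of other cells that use the same kinases were counted as well. Ckm and Mb are also genes of skeletal muscle, of which 12 markers summed to 6.32 to 9.37 FPKM in CON and 8.75 to 14.9 FPKM in HG. Of the 6 that passed the filter, limma called 3 higher (Mylpf, Tnni2 and Myog, with log2 fold changes of 0.99, 1.26 and 0.76) and 0 lower. With a pseudocount of 1 these were 0.57, 0.71 and 0.27, and the call of Myog was lost without CON 1, CON 4, HG 3 or HG 5 (adjusted p = 0.0554 to 0.0620). Mylpf had only 6 to 31 reads in a library, Tnni2 5 to 37 and Myog 5 to 18. The adult fast myosins Myh1, Myh2 and Myh4 were below the filter. Ckb is abundant in smooth muscle and nerve cells. Smooth muscle genes summed to 681 to 802 FPKM in CON and 912 to 1147 FPKM in HG, and 3 of 5 rose (Cnn1 by 0.91, Acta2 by 0.32 and Tagln by 0.47 on the log2 scale) with 0 falling. The 9 neuron and glia genes summed to 7.01 to 7.88 FPKM in CON and 6.48 to 8.48 FPKM in HG, with 1 of 5 tested (Prph, log2 fold change -0.43) called lower, a call lost without CON 1 or CON 4 (limma adjusted p = 0.0530 and 0.0518). Red cell genes summed to 10058 to 18939 FPKM in CON and 7772 to 10986 FPKM in HG, with 8 of 9 lower. Macrophage genes summed to 18.6 to 23.3 FPKM in CON and 23.4 to 29.0 FPKM in HG, with 3 of 5 higher. Of these 3 calls, that of C1qa (log2 fold change 0.25) was lost without CON 4, CON 5, HG 2 or HG 4 (limma adjusted p = 0.0530 to 0.0630) and when libraries were scaled by quantiles (0.169) or median-of-ratios factors (0.177). Of 5 fibroblast genes 2 rose and 2 fell (654 to 786 FPKM summed in CON, 623 to 725 FPKM in HG), and of 5 endothelial genes 0 were called by limma and 0 reached an unadjusted p under 0.05 (184 to 199 FPKM in CON and 180 to 197 FPKM in HG). No listed marker was at 0 in all libraries. The part of these cells in the members' values was not tested.

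Gatm and Slc16a12, also genes of creatine supply, were higher in HG, whereas Gamt and Slc6a8 were slightly lower. Relative to the summed cardiomyocyte genes, the log2 fold changes of Gamt and Slc6a8 were 0.051 and -0.0050, with overlapping groups. Gatm, which catalyses the first step of creatine making, was at 38.2, 37.8, 34.0, 36.0 and 37.7 FPKM in CON. In HG it was at 54.4, 44.1, 45.7, 55.9 and 54.9 FPKM. Every HG library thus lay above every CON library, with means of 36.7 ± 1.77 and 51.0 ± 5.61 FPKM (SD, 5 per group) and a log2 fold change of 0.47 (standard error 0.0693, limma adjusted p = 0.000276). The level of Gatm relative to Gamt went from 2.18 ± 0.179 in CON to 3.36 ± 0.491 in HG (SD, 5 per group), also without overlap.

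Slc16a12, another creatine carrier of the cell membrane, was at 15.5, 14.3, 15.4, 17.3 and 18.7 FPKM in CON. Its level in HG was 27.6, 28.3, 29.4, 25.8 and 32.4 FPKM. The groups were far apart, with means of 16.2 ± 1.74 and 28.7 ± 2.46 FPKM (SD, 5 per group) and a log2 fold change of 0.82 (standard error 0.0764, limma adjusted p = 1.01e-05). Ckmt1 was near the limit of detection, at 10 to 24 reads per library, with means of 0.556 ± 0.0658 FPKM for CON and 0.560 ± 0.170 FPKM for HG (limma adjusted p = 0.933). Its log2 fold change of -0.022 had a standard error of 0.177, so a change of the size seen for Ckm or Ckmt2 lay outside its error, but a small one would not have been detectable at this depth.

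The carriers and channels that pass ATP, ADP and phosphate between mitochondria and cytosol all fell. Of 6 such genes tested, 6 were called lower and 0 higher, beside 11.8% of all genes tested called lower and 28.4% higher. The median log2 fold change of the 6 was -0.25. Slc25a4, the ATP/ADP carrier of heart and muscle, had means of 1954 ± 42.5 FPKM for CON and 1327 ± 58.2 FPKM for HG (SD, 5 per group, log2 fold change -0.56, standard error 0.0405, limma adjusted p = 1.81e-06). Slc25a3, the phosphate carrier, fell by 0.44 on the log2 scale (adjusted p = 2.20e-05), and Slc25a5, the ATP/ADP carrier found in most tissues, by 0.27 (adjusted p = 0.00169). For all 3 the groups did not overlap. The porins Vdac1, Vdac2 and Vdac3, named here because they complete the list, had log2 fold changes of -0.23, -0.17 and -0.18. Their limma adjusted p was 0.00225, 0.0141 and 0.0160, and the groups overlapped for Vdac2 and Vdac3. For comparison, the summed cardiomyocyte genes fell by 0.20 on the log2 scale.

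Enzymes that move phosphate between nucleotides did not share a direction. Of 16 listed, 12 were tested, of which 5 rose, 3 fell and 4 were not called, with a median log2 fold change of 0.12. Ak1, the cytosolic adenylate kinase, which shares the task of phosphate transfer with creatine kinase, went from 63.8 ± 2.18 to 53.4 ± 3.58 FPKM (SD, 5 per group, log2 fold change -0.26, limma adjusted p = 0.00103). The AMP deaminases diverged. Ampd3 fell by 0.62 on the log2 scale, from 3.37 ± 0.227 to 2.16 ± 0.187 FPKM (adjusted p = 0.000110), whereas Ampd2 rose by 0.28, from 11.4 ± 0.578 to 13.8 ± 0.349 FPKM (adjusted p = 0.000520).

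Of the proteins that anchor or turn over muscle creatine kinase, 6 of 7 were tested, of which 4 fell and 1 rose. Myom2, an M-band protein of the sarcomere, where Ckm is bound, had means of 2.59 ± 0.437 FPKM for CON and 0.866 ± 0.227 FPKM for HG (SD, 5 per group), without overlap, for a log2 fold change of -1.50 (standard error 0.183, limma adjusted p = 7.00e-05). Fhl2, an adaptor that binds metabolic enzymes to the sarcomere, fell by 0.40 on the log2 scale (adjusted p = 8.97e-05). Trim63, a ubiquitin ligase of muscle that targets creatine kinase, fell by 0.32 (adjusted p = 0.000153). The 1 that rose was Myom3 (log2 fold change 0.53, adjusted p = 0.0310), named after its value was seen. Asb9, whose protein binds Ckb, was below the filter, with 1 to 5 reads in each CON library and 0 in each HG library, and no fold is given. Among the other globins of tissues, Cygb fell by 0.26 on the log2 scale (adjusted p = 0.0221), a call that was lost without CON 4, CON 5, HG 1, HG 3 or HG 5 (0.0507 to 0.0573), and Ngb was not called (-0.14, adjusted p = 0.747) at 1 to 10 reads.

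Most factors known to drive Ckm and Mb transcription were not called, as was the case for most genes tested. Of 14 tested, 3 rose, 1 fell and 10 were not called, with a median log2 fold change of 0.082. Over all genes tested, 28.4% were called higher and 11.8% lower, with a median of 0.093, so the list lay near that background. Gata4, a cardiac transcription factor, rose from 85.2 ± 3.02 to 102 ± 4.19 FPKM (SD, 5 per group, log2 fold change 0.26, limma adjusted p = 0.000214). Sp1 rose by 0.23 on the log2 scale (adjusted p = 0.00173) and Nfatc1 by 0.45 (adjusted p = 0.00977). The 1 called lower was Mef2d (log2 fold change -0.14, adjusted p = 0.0272), named after its value was seen. Mef2a (-0.010), Mef2c (0.065), Srf (0.073) and the coactivator Ppargc1a (-0.10), given here for their known part at these promoters, were not called. Over all 43 related genes tested, 11 rose, 15 fell and 17 were not called. With median-of-ratios factors 9 rose and 18 fell.

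**Figure D4:**
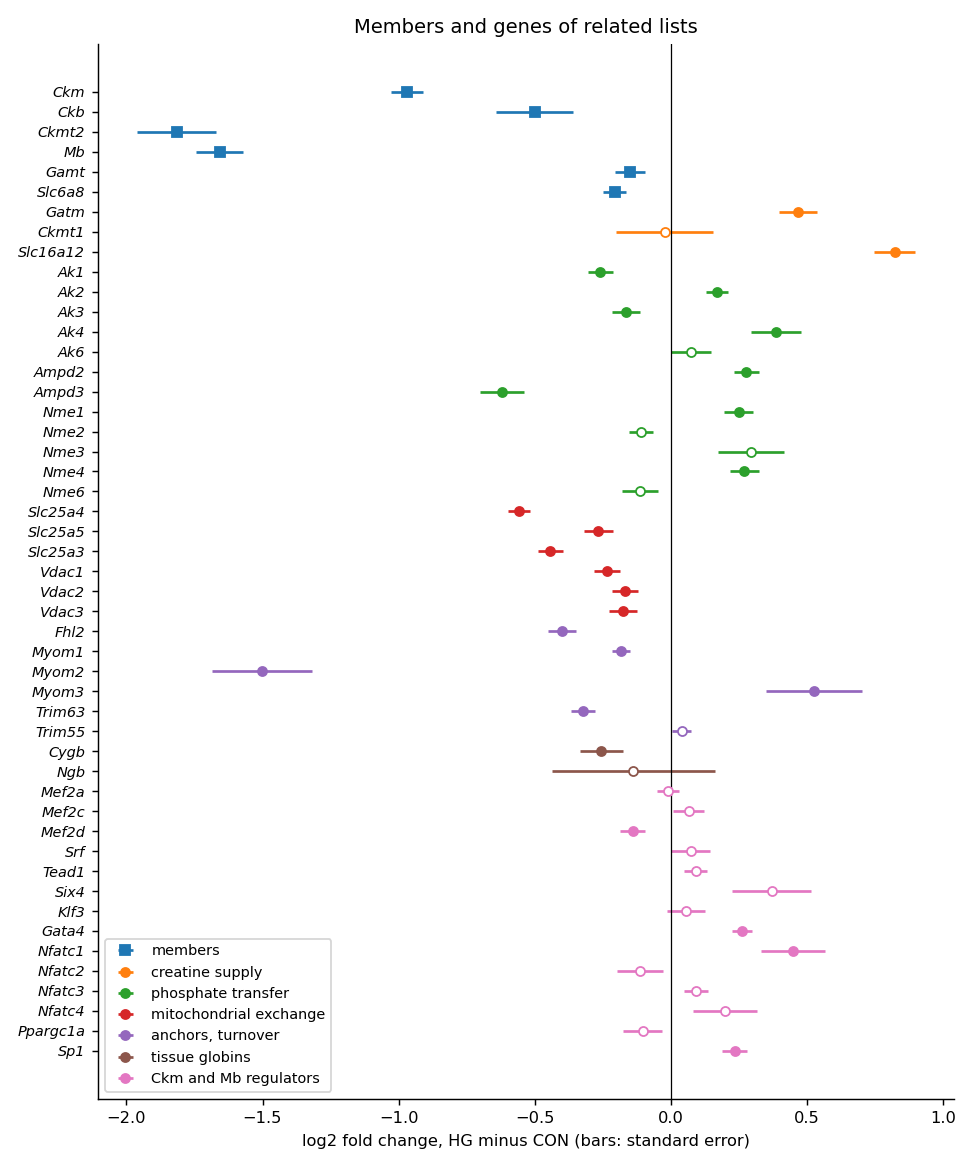
Log2 fold change of HG against CON (x axis, bars are standard errors) for the 6 members (squares, described without a test) and 43 genes of related lists (circles, filled where the limma adjusted p was under 0.05), coloured by list. All 6 mitochondrial exchange genes lie below 0, Gatm and Slc16a12 lie above 0, and most regulators are open circles near 0.

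Other enzymes and carriers that come in a muscle form and a form found in most tissues were compared as a ratio in each library, as for Ckm and Ckb. In the 5 pairs the ratio of the muscle form put all HG libraries below all CON libraries. The pairs were picked with earlier results of these libraries known, the lower level of Eno3 and Pgam2 in HG among them. For that reason the pairs of Eno3 and Pgam2 are only described, although they were run and adjusted with the rest. The other 3 pairs each gave p = 0.00794 in an exact permutation test, two-sided, of 5 against 5 libraries (the smallest p this design allows), and 0.00794 after adjustment over the 5 pairs, which is not independent evidence for the same reason. Eno3 over Eno1, the enolases of glycolysis, went from 0.0558 ± 0.00319 to 0.0271 ± 0.00143 (SD, 5 per group), a log2 difference of -1.04. Here the muscle form went from 53.6 ± 3.52 to 26.6 ± 2.63 FPKM, while Eno1 was at 959.5 ± 27.1 and 978 ± 66.2 FPKM and was not called (limma adjusted p = 0.711).

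Pgam2 over Pgam1, the phosphoglycerate mutases, had a log2 difference of -0.85, from 0.0743 ± 0.0103 to 0.0411 ± 0.00347. Cox6a2 over Cox6a1, subunits of cytochrome c oxidase, had one of -0.47, from 0.567 ± 0.0618 to 0.411 ± 0.0535. The closest groups were those of Cox6a2 over Cox6a1, where CON 2 was at 0.480 and HG 4 at 0.469. The differences were smaller for Slc25a4 over Slc25a5 (-0.29) and for Pygm over Pygb, the glycogen phosphorylases (-0.27). In 4 of the 5 pairs the form of most tissues was itself called lower, by 0.14 to 0.27 on the log2 scale, but less than its partner. For Ckm and Ckb the log2 difference was -0.47 and the groups overlapped through HG 5. Eno1, Pgam1 and Slc25a5 have processed copies in mammalian genomes, so that their reads may be partly split between copies.

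**Figure D5:**
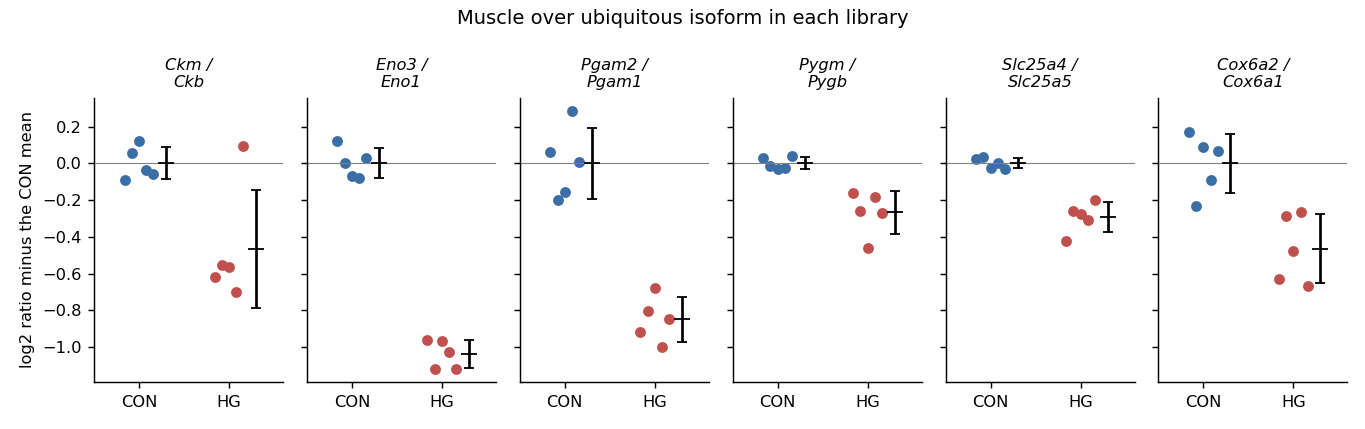
Log2 ratio of the muscle isoform to the isoform of most tissues in each CON (blue) and HG (red) library, minus the CON mean of that pair (y axis, line at 0), with the group mean and SD beside the points. The 5 comparison pairs separate the groups, with mean differences of -1.04 to -0.27, while HG 5 lies at the CON level for Ckm/Ckb.

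Within the groups the members did not vary as a block. After the group means were subtracted, Pearson's r of log2(FPKM + 0.1) over the 10 libraries was highest for Gamt with Slc6a8 (0.73) and for Ckm with Ckb (0.55), and was 0.42 for Ckmt2 with Mb. It was -0.17 for Ckm with Mb, -0.15 for Ckm with Ckmt2 and -0.65 for Mb with Gamt. These values describe 10 libraries that share preparation and scaling, and no p is given. The genes most like Ckm on the same measure, among 11703 genes whose mean reached 1 FPKM, were RGD1559896 (r = 0.95), Tmem104 (0.93) and Cltb (0.93). For Ckb they were Lamtor1 (0.98), Babam1 (0.97) and Mfge8 (0.96), for Ckmt2 Syt17 (0.96), Cln3 (0.96) and Adat3 (0.90), and for Mb Stard6 (0.94), Prpf3 (0.93) and Ppp3cc (0.91). None of the 12 is a gene of the related lists above. They are the highest of many correlations over 10 libraries, so part of the size of r comes from the picking. For Ckb, HG 5 lay at -0.64 from its group mean on the log2 scale and weighs most in r.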

How the data were processed

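RNA of 10 fetal rat hearts was analysed. The authors deposited FPKM per gene and library. The submitters' processing notes name fastp, HISAT2, HTSeq, R 3.2.0 and the rat build mRatBN7.2. Whether counting used strand is not given in the sources used here. The methods speak of one cDNA library from pooled RNA and a figure legend of isolated cardiomyocytes, whereas the labels give heart tissue and the columns differ between libraries.

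FPKM was a whole multiple of 1 read (tolerance 0.02 reads) in 100% of genes, which gave the reads per library. DESeq, named in the paper's methods, takes counts and was not run on these reads. Instead, log2(FPKM + 0.1) was used for genes whose mean reached 0.1 FPKM (14542 tested, 3483 below). The groups were compared with limma 3.58.1 (R 4.3.3, trend, Benjamini-Hochberg over all genes tested, no covariate). The fit was tested on simulated data. Fold changes on this scale understate those of low genes. Ratios were set against each other by exact permutation, two-sided (scipy 1.17.1). Python 3.11.15, numpy 2.4.6, pandas 2.3.3 and matplotlib 3.10.9 were used. There were 0 unused sample columns.

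The members and lists were chosen with earlier results of these data known. Named are the members, every creatine supply gene, up to 3 called genes per list with the smallest adjusted p, the isoform pairs and the 3 genes most like Ckm, Ckb, Ckmt2 and Mb. Others are marked, apart from markers below the filter. The alternatives were other pseudocounts, filters, scalings (among them 12 hemoglobin genes left out), limma settings, voom on recovered reads, the replicate number as a block and each library left out. Cox7a1 with Cox7a2 was not analysed here. Promoters are from RefSeq (GRCr8).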

Additional observations from a re-analysis of the deposited data

Results flagged for a closer look

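In each group of 5 libraries, the highest and lowest values of 48 results (96 groups) were compared with the nearest other library. In 3 groups (3.13%) an end value stood apart by more than 0.710 of the range, Dixon's critical value, which chance alone passes in about 5 of 100 groups. Ckm over Ckb was 5.58 in HG 5, while the next highest HG library was at 3.56. Gata4 was at 90.5 FPKM in CON 1 and at 84.7 FPKM in the next CON library. Pdgfra, a fibroblast marker, was at 11.0 FPKM in CON 2 and at 9.85 FPKM in the next.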

How the results depend on the processing

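The log2 fold changes of Ckm, Ckb, Ckmt2, Mb and Slc6a8 were negative under every alternative run, and these 5 genes were called lower in all 22 fits, which for genes chosen on this difference is a description only. Gamt was called in 8 of 22. Relative to the summed cardiomyocyte genes the log2 fold change was -0.77 for Ckm, -1.46 for Mb, -0.0050 for Slc6a8 and 0.051 for Gamt, which turned its sign, as the scale itself fell in HG. After quantile normalization Slc6a8 was at -0.27, and with median-of-ratios factors at -0.30. DEGs over all genes (called, and beyond 1 in size on the log2 scale) numbered 282, and 134 with a mean of at least 1 FPKM, 64 with a pseudocount of 1 and 426 with voom on recovered reads. The log2 fold change of Ckmt1 was 0.058 with array weights and ran from -0.15 to 0.10 with a library left out, turning sign without CON 1, CON 2 or HG 5. Among list genes, calls of Cygb, Myog, Prph and C1qa were lost in 19 fits in all. With a library left out, the log2 Ckm over Ckb difference ran from -0.61 (without HG 5) to -0.41, and that of Ckb alone from -0.57 to -0.34 (without HG 5).

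Replicate numbers did not pair the libraries: the correlation of same-numbered deviations ran from -0.13 to 0.11, and 0 of 5 correlated best with their own number. With the number as a block, 5096 genes were called, against 5836, and 13 related genes fell and 12 rose, against 15 and 11. Permutation within replicate numbers was not run for the isoform pairs, since it cannot reach 0.05. Low depth limits what can be said of Ckmt1, Ngb and Asb9, and of the skeletal muscle genes Mylpf, Tnni2 and Myog.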
